A study of Mus musculus with 11 samples.

Results

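The alpha- and beta-defensin genes were followed in RNA sequencing libraries of skin and small intestine. The members were the genes of the deposited expression table whose symbol starts with *Defa* or *Defb*, which gave 71 of the 45777 genes listed, 28 *Defa* and 43 *Defb*. The libraries came from BALB/c mice of 8 to 10 weeks that had been shaved and then given 62.5 mg of cream a day on the back and right ear for 5 to 8 days. The cream contained 5% imiquimod (IMQ), a ligand of the receptor TLR7 that induces a psoriasis-like dermatitis, or was vehicle (Vaseline) in the controls. Skin gave libraries of 3 controls (numbered 1 to 3) and 3 IMQ-treated mice (4 to 6), small intestine gave 3 of controls (7 to 9) and 2 of IMQ-treated mice (10 and 11), and all mice shared the strain and the shaving. The annotation states that mice were female or male without the sex of each, and does not give the days of each mouse, the segment of the small intestine or which tissues came from one mouse. Since separate mice are not stated for the libraries, p-values measure the spread between these libraries.

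Defensins are short secreted peptides, rich in cysteine and positive charge, that kill bacteria by damaging their membranes. Alpha-defensins of the mouse intestine, also called cryptdins, are made as inactive precursors by Paneth cells at the base of the crypts and are activated there by the protease matrilysin, encoded by *Mmp7*. Beta-defensins are made by many epithelia, among them keratinocytes, where IL-17, IL-22 and IL-1 induce several of them, and some act as ligands of the chemokine receptor CCR6.

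A read count was present for 35 of the 71 members in at least one library and 36 had no count anywhere. In skin, 24 members had a count (16 *Defa* and 8 *Defb*), and in small intestine 29 (25 *Defa* and 4 *Defb*). Both classes lie mainly on chromosome 8 of mm10 (GRCm38), which holds all 28 *Defa* and 24 of the 43 *Defb* genes, while the other *Defb* genes lie on chromosomes 1, 2 and 14, with 3, 11 and 5 members. No member outside chromosome 8 reached 10 counts in a library, against 26 *Defa* and 5 *Defb* genes on it. Of the *Defa* genes, 26 form a block at chr8:21025545-21735471. The skin genes *Defb14*, *Defb4*, *Defb6* and *Defb3* lie apart from it at chr8:19160244-19295339, and *Defb1* lies at chr8:21776555-21795185. A count of 0 allows up to 3 counts, which is 0.0572 to 0.0667 CPM (counts scaled to library size) in the skin libraries and 0.0513 to 0.0625 CPM in the small intestine. These limits, and the intervals given with shares, cover counting error only.

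The coding sequences of the 4 beta-defensins that carried the signal in skin are shown because they differ throughout, so that their reads could be told apart. They were read from the GENCODE M21 transcripts on GRCm38, all on the plus strand, and capitals mark the cysteine codons in frame. Their NCBI gene identifiers in the table are 244332 (*Defb14*), 27358 (*Defb3*), 116746 (*Defb6*) and 13214 (*Defb1*). *Defb14* lies at chr8:19194357-19195212, *Defb3* at chr8:19293373-19295221, *Defb6* at chr8:19225505-19228105 and *Defb1* at chr8:21776652-21794576, from start to stop codon with introns.
Defb14: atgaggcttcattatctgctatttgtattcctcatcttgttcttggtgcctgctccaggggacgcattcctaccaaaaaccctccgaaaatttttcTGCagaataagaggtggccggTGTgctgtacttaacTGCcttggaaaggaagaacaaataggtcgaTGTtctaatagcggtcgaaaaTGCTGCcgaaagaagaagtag
Defb3: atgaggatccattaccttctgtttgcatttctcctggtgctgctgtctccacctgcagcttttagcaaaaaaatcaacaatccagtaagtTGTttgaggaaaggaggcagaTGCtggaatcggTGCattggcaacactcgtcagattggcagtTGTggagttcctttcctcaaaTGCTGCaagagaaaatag
Defb6: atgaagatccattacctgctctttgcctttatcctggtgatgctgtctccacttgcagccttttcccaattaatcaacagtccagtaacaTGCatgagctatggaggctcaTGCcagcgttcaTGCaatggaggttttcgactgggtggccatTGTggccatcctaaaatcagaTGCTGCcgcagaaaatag
Defb1: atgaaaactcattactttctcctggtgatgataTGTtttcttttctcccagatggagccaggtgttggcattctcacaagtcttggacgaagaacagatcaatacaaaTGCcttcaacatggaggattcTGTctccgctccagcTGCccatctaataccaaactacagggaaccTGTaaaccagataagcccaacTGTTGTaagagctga
*Defb3*, *Defb6* and *Defb14* have 6 cysteine codons, the number that forms the 3 disulfide bonds of a mature defensin, and *Defb1* has 7. The nearest pair among these, *Defb3* and *Defb6*, is identical at 71.9% of aligned positions, and *Defb14* is identical to *Defb3* at 59.5%.

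For the alpha-defensins, the segment from the first cysteine codon to the stop codon is shown, because it shows how alike the genes are there. The segment alone does not tell which genes reads can separate, which also depends on the rest of the transcript. Capitals again mark cysteine codons, and bases are counted from 1 at the start of each coding sequence.
Defa24, bases 190 to 282: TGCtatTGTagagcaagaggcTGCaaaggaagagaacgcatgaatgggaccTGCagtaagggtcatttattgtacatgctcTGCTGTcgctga
Defa30, bases 190 to 282: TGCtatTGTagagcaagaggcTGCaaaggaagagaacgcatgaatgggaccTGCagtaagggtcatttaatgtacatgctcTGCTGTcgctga
Defa17, bases 190 to 282: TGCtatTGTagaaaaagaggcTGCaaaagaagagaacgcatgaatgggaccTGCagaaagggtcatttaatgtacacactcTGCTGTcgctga
Defa31, bases 190 to 282: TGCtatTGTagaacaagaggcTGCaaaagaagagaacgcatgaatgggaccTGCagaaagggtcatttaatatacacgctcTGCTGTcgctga
Defa35, bases 190 to 282: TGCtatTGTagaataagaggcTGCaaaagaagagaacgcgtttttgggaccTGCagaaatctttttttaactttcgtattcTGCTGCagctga
Defa2, bases 190 to 288: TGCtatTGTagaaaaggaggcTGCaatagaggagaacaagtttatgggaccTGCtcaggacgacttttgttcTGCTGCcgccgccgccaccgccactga
Defa28, bases 172 to 285: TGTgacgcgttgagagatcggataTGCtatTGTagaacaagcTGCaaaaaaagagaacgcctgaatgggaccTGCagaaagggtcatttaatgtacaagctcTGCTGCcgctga
Defa29, bases 193 to 351: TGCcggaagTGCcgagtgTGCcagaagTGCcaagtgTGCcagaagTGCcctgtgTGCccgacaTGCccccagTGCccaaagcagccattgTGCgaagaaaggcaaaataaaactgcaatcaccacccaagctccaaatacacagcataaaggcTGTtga
*Defa24* and *Defa30* differ at 4 of the 282 coding bases (T72C, G154T, A174G and T259A, with the base of *Defa24* first), of which T259A lies in the segment shown. *Defa5*, *Defa34*, *Defa36* and *Defa37* carry the segment shown for *Defa35* letter for letter. *Defa29*, a cryptdin-related gene, stands apart with 11 cysteine codons, of which most alternate with pairs of other codons, whereas *Defa24*, *Defa30* and *Defa17* have 6 and *Defa28* has 7. The whole coding sequence is identical between *Defa3* and *Defa17*, *Defa23* and *Defa31*, *Defa36* and *Defa37*, *Defa2* and *Defa33*, and *Defa20* and *Defa32*, and *Defa2* differs from *Defa20* by G103C alone.

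Because reads were 100 bases long, the transcript of each of the 68 members matched to one was cut into all of its 100-base windows. A window found in the transcript of another gene was counted as shared. Each window was taken alone, without the second read of its pair. *Defa24* shared none of its windows, *Defa30* 0.334% and *Defa26* 1.1%. All windows of *Defa2*, *Defa31*, *Defa33* and *Defa37* were shared, as were 94.7% of those of *Defa36*, 90.6% of *Defa17*, 89.1% of *Defa23*, 86.8% of *Defa3* and 88.1% of *Defa5*. At a limit of 50% of windows shared with one other gene, 5 groups were formed: *Defa3* with *Defa17*, *Defa23* with *Defa31*, *Defa5* with *Defa34*, *Defa36* with *Defa37*, and *Defa2* with *Defa20*, *Defa32* and *Defa33*. Values of single genes within a group are uncertain, since the sources used here do not say how a read matching several genes was counted, and the summed values are given as well. The reference genome is that of C57BL/6J, whereas the mice were BALB/c, and copies that differ between the strains were not analysed here.

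**Figure D1:**
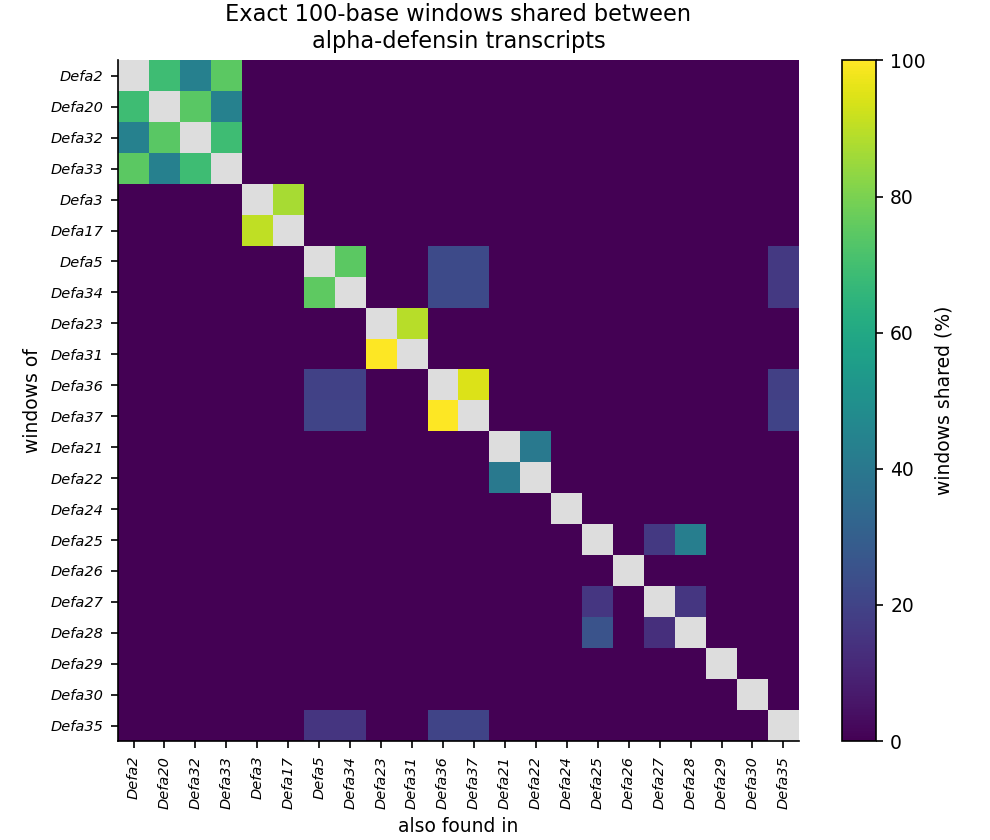
Percent of the 100-base windows of each alpha-defensin transcript (vertical axis) that are found unchanged in the transcript of another (horizontal axis), with the gene against itself in grey. The 5 groups share over 50% of windows, *Defa21* and *Defa22* share 40.4% and 40.3%, and *Defa24* has no shared window.

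In the skin, the question was which defensins differ between IMQ-treated and vehicle-treated mice. Of the 8 *Defb* genes with a count, 4 had substantial levels, namely *Defb1*, *Defb3*, *Defb6* and *Defb14*, and in each of them all 3 IMQ libraries were above all 3 controls. *Defb14* passed the test and *Defb3*, absent or nearly so in controls, passed when genes were not filtered on low counts. *Defb1* and *Defb6* were not past the threshold. Genes detected in all 6 skin libraries were tested by the quasi-likelihood method of edgeR, with p adjusted after Benjamini and Hochberg, and 6.74% of 20512 genes were called, 4.05% as higher in IMQ-treated skin. Only 3 members met this filter, of which 1 was called.

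*Defb14* encodes an inducible beta-defensin of keratinocytes. Its normalized counts, scaled to the mean library of the tissue, were 78.7, 144 and 45.3 in controls 1 to 3 and 588, 622 and 281 in IMQ libraries 4 to 6. The lowest IMQ library was above the highest control. The log2 fold change was 2.48 (SE 0.49, adjusted p = 0.0341, edgeR), from a mean of 89.3 ± 50.2 (SD, n = 3) to 497 ± 188 (SD, n = 3). The call was kept when control 2 or IMQ 6 was left out (adjusted p = 0.0160 and 0.0442, edgeR) and lost when control 1, control 3, IMQ 4 or IMQ 5 was left out (adjusted p = 0.128, 0.0601, 0.103 and 0.128, edgeR).

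*Defb3* is another inducible epithelial beta-defensin. It had 0, 0 and 2 counts in the controls and 4903, 2375 and 1870 in IMQ libraries 4, 5 and 6. No other member went from near absence to a level this high. The 2 control counts gave a ratio of 5122 with an exact 95% counting interval of 1417 to 42297, which leaves out the spread between mice. Since 2 controls had no count, *Defb3* was not among the genes tested above. Without the filter, edgeR called it (adjusted p = 0.00145), with 2.39% of 29186 genes called as higher.

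*Defb1*, which is made by epithelia without stimulation, had normalized counts of 502, 906 and 250 in controls and 2324, 2474 and 1044 in IMQ libraries. The groups did not overlap, although IMQ 6 was close to control 2. Its log2 fold change was 1.82 (SE 0.51, adjusted p = 0.0873, edgeR), so it did not pass.

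*Defb6*, known from keratinocytes and muscle, had normalized counts of 4955, 7714 and 3995 in controls and 7830, 15533 and 15225 in IMQ libraries. IMQ 4 was only just above control 2. The log2 fold change was 1.21 (SE 0.34, adjusted p = 0.0850, edgeR) and did not pass either. The Wald test of DESeq2, which called 7.38% of the genes as higher, gave adjusted p values of 0.00287 for *Defb1* and 0.00691 for *Defb6*, so their calls depended on the tool.

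Non-overlap with the IMQ libraries above all controls was seen for 15.1% of the 20512 genes tested. Per length, *Defb6* was the most abundant beta-defensin in both groups, with 319 ± 95.7 FPKM in controls and 726 ± 262 FPKM in IMQ-treated skin (SD, n = 3 each). In IMQ-treated skin *Defb3* came next at 181 ± 95.7 FPKM, then *Defb1* at 38.3 ± 14.9 and *Defb14* at 26.6 ± 9.72 FPKM (SD, n = 3). The libraries of the last pair overlapped and those of the other neighbours in this order did not. Among the beta-defensins of controls the order was *Defb6*, *Defb1* at 11.1 ± 6.18 FPKM, *Defb14* at 4.64 ± 2.45 FPKM and *Defb3* at 0.0346 FPKM.

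Among the remaining members, *Defb4* had 0, 2 and 0 counts in controls and 14, 4 and 0 in IMQ libraries, a ratio of 10.1 with an exact 95% counting interval of 2.41 to 89.6. Its groups overlapped. The other 3 *Defb* genes with a count in skin stayed under 10 counts in every library. The 43 *Defb* genes together had normalized counts of 5536, 8775 and 4294 in controls and 16119, 21085 and 18536 in IMQ libraries, a log2 ratio of the means of 1.58. *Defb6* was the largest part of this sum in every library.

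**Figure D2:**
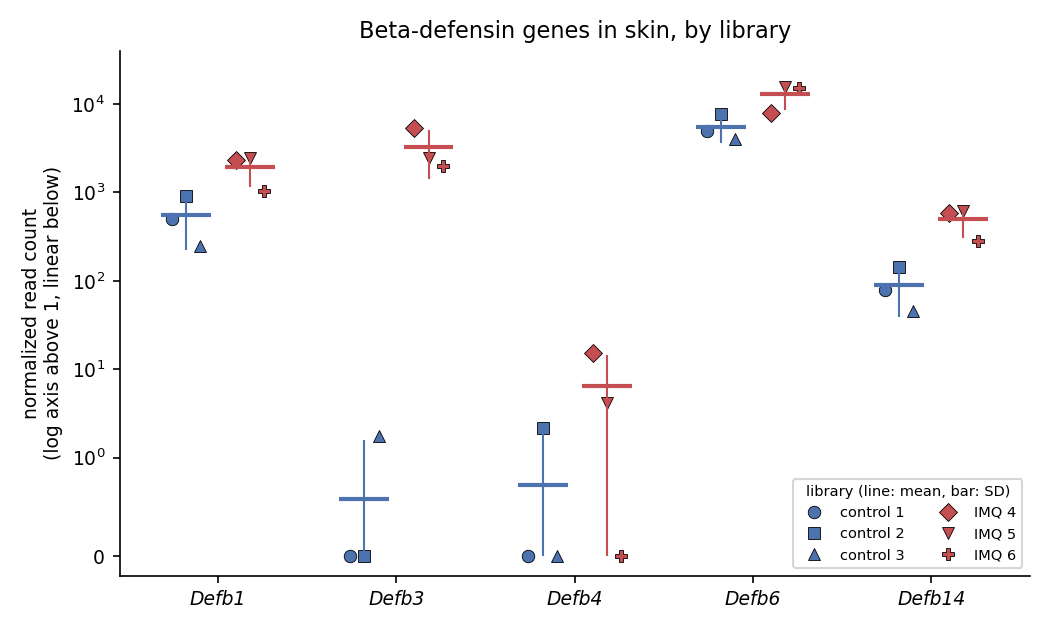
Normalized read counts (vertical axis, log scale above 1 and linear below) of the 5 beta-defensin genes with at least 10 counts in a skin library, one symbol per library, controls in blue and IMQ libraries in red, with the mean (line) and SD (bar, n = 3). The IMQ libraries lie above all controls for *Defb1*, *Defb3*, *Defb6* and *Defb14*, and *Defb4* has 2 controls and 1 IMQ library at 0.

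Other markers differed between the same libraries. Keratinocyte genes were lowest in control 3 and IMQ 6, the libraries that were also lowest in their group for *Defb1* and *Defb14*: the 12 listed genes summed to 31436, 29960 and 15252 CPM in controls and 47946, 45145 and 24883 CPM in IMQ libraries. Of these 12 genes, 4 were called higher (*Krt6b* by a log2 fold change of 5.24, *Krt16* by 4.63, *Krt6a* by 3.99 and *Krt14* by 1.41) and *Krt77* fell by 8.08 on the log2 scale. The part of keratinocyte content in the beta-defensin values was not tested. In bulk tissue, fewer cells of a type and less RNA per cell cannot be told apart. The 11 skeletal muscle genes had summed levels of 8942 to 13846 CPM in controls and 6511 to 12246 CPM in IMQ libraries, and edgeR called 0 of them, with 0 at an unadjusted p under 0.05 as well. Hair follicle genes stood out in control 2, where the 14 genes found summed to 15.7 CPM against 1127 and 1723 CPM in controls 1 and 3 and 11.1 to 17.9 CPM in IMQ libraries, and *Hoxc13* was the 1 called of 7 tested and fell by 2.92 on the log2 scale.

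Cytokines that induce beta-defensins were examined in a list of 21 genes, which also holds cytokine receptors and the regulator *Nfkbiz*. Of these genes 15 were tested, 5 were called higher and 0 lower, with a median log2 fold change of 1.03 against -0.01 over all genes tested. *Il36a* (listed as *Il1f6*) had a log2 fold change of 3.15 (adjusted p = 0.0323), *Il1b* of 2.84 (adjusted p = 0.00432) and *Il23a* of 2.49 (adjusted p = 0.0403) in edgeR, and *Nfkbiz* and *Il17ra* were also called. *Il17a* and *Il17f*, which had no count in any control, had 80, 71 and 243 and 118, 111 and 554 counts in IMQ libraries 4, 5 and 6. Against a floor of 3 counts per control library these levels were at least 48.6-fold and 96.6-fold higher. *Il17c* had 59, 10 and 24 counts and *Il22* 14, 0 and 32 counts in the IMQ libraries, again with none in controls. *Il17a* and *Il17f* were highest in IMQ 6, the library with the lowest *Defb1*, *Defb3* and *Defb14* of its group. *Defb6* was not lowest there, at 15225 normalized counts against 7830 and 15533 in IMQ 4 and 5. Of the called genes, *Il36a*, *Il1b*, *Il23a* and *Nfkbiz* were lowest in IMQ 6 of the IMQ libraries, and *Il17ra* was highest there. The part of any of these signals in the beta-defensin values was not tested.

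Of the 10 receptors and processing enzymes, 8 were tested in skin, of which 2 were called higher and 1 lower. *Klk14*, a protease of the cornified layer, rose by a log2 fold change of 5.50 and *Tlr4* by 0.83, and *Mc1r*, a receptor to which beta-defensins can bind, fell by 5.42. Control 2 was far below the other controls for *Mc1r*, which was at 260, 34.9 and 990 normalized counts in controls 1 to 3. In IMQ libraries *Mc1r* was at 14.2, 7.20 and 8.48. *Ccr6* was at 250, 442 and 219 normalized counts in controls and at 523, 781 and 1091 in IMQ libraries (log2 fold change 1.40, adjusted p = 0.0698, edgeR). Among 16 tested genes of other antimicrobial proteins of the skin, 8 were called higher and 0 lower, led by *S100a8* (log2 fold change 10.16), *S100a9* (9.46) and *Lcn2* (5.22), so that the median of this list was 2.38. Of the neutrophil genes, 6 of 8 tested were called higher, led by *S100a8*, *S100a9* and *Mmp8* (3.49).

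Alpha-defensin counts in skin were confined to 3 of the 6 libraries. Controls 1 and 3 and IMQ 6 had no *Defa* count, whereas control 2 had 10737 counts over 15 genes, IMQ 5 had 289 over 11 and IMQ 4 had 24 over 5. In control 2 this was 0.0235% of all counts (95% Wilson interval 0.0231 to 0.0240), above the share of the beta-defensins in the same library, 0.0176% (0.0172 to 0.0180). The genes with most counts in control 2 were *Defa24* (2917), *Defa17* (1448), *Defa3* (1291) and *Defa30* (1235), which were also the 4 with most counts in control small intestine. Intestinal genes other than defensins were present in the same libraries. For 15 *Defa* genes with a count in every small intestine library and at least 1000 counts on average in its controls, the CPM in control 2 was a median of 1.59% of the mean in control small intestine (range 0 to 2.07%). For 8 Paneth cell genes other than defensins the median was 1.55% (1.29 to 3.43%) and for 18 genes of the intestinal epithelium 1.04% (0.487 to 2.12%), where genes above 0.5 CPM in skin control 1 or 3 were left out. *Mmp7*, with 0 counts in controls 1 and 3, had 133 in control 2. In IMQ 5 the corresponding medians were 0.0346%, 0.0705% and 0.0316%, and in IMQ 4 they were 0, 0.00801% and 0.0155%.

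**Figure D3:**
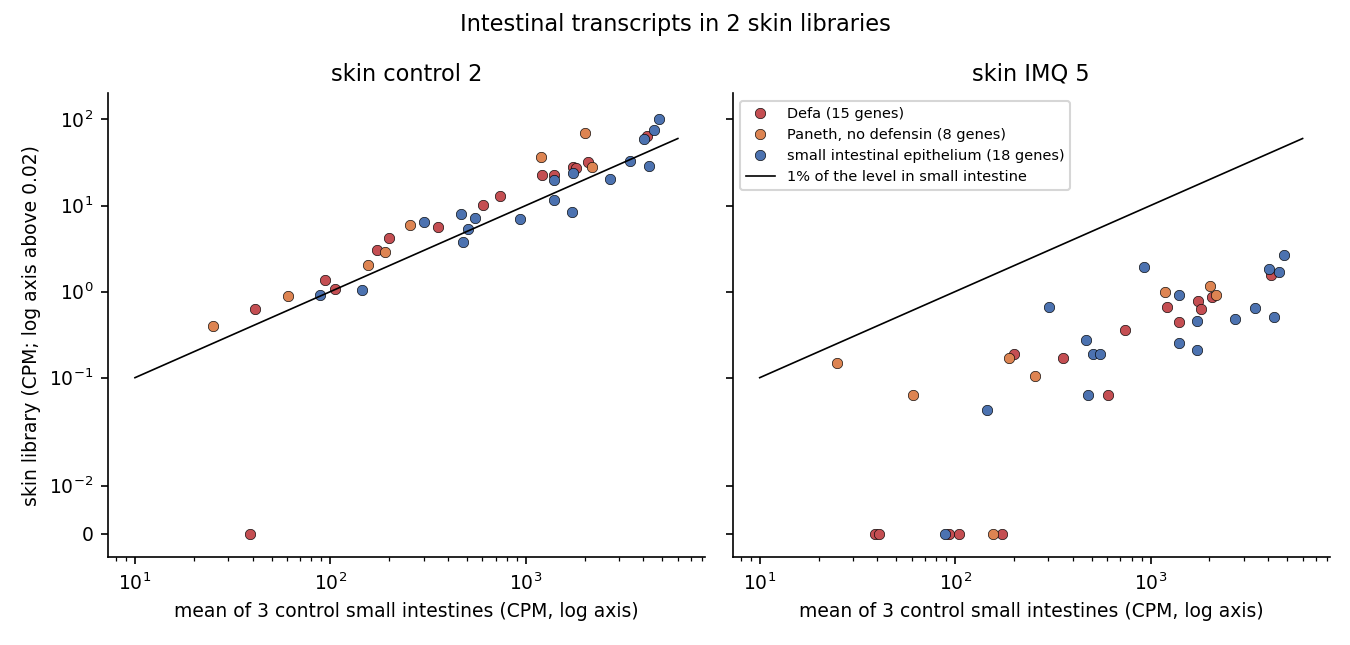
CPM of intestinal genes in skin control 2 (left) and skin IMQ 5 (right) on the vertical axis (log scale above 0.02) against their mean CPM in 3 control small intestines (horizontal axis, log scale), with alpha-defensins in red, other Paneth cell genes in orange and other epithelial genes in blue. The line marks 1% of the intestinal level: the genes in control 2 lie near it, at medians of 1.59%, 1.55% and 1.04%, apart from *Defa28* at 0, and those in IMQ 5 lie below it.

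No *Defa* gene met the filter in skin, since each had a 0 in at least one library. Without the filter, 16 *Defa* genes were tested there and edgeR called 0, with 1 at an unadjusted p under 0.05, and 15 had a fold change below 0. When control 2 and IMQ 5 were also left out, the only *Defa* counts left in skin were 24 over 5 genes in IMQ 4. These 5 could be tested, and their fold changes above 0 were fixed in advance by the zeros in the other libraries. They therefore tell nothing about direction. The part of intestinal RNA in the *Defa* counts of these libraries was not tested. *Defa-ps12*, a pseudogene that lies among the skin beta-defensins on chromosome 8, had 17 counts in IMQ 5 and 0 in the other 10 libraries, small intestine included. Beta-defensin counts were low in the small intestine, where *Defb3*, *Defb4* and *Defb14* had 0 counts in all 5 libraries of the tissue, *Defb6* had 3 counts in control 9 alone, and *Defb1* had at most 17. When control 2 and IMQ 5 were both left out, in an alternative chosen after seeing the data, *Defb14* had a log2 fold change of 2.81 (adjusted p = 0.0700, edgeR), so the call was lost with 2 libraries a group and 1.23% of genes called as higher. *Defb1* was then at 2.17 and *Defb6* at 1.37, neither called, and *Defb3*, tested without the filter, had an adjusted p of 0.0312, with 0.68% called as higher. Without control 2 alone, *Defb1*, *Defb6* and *Defb14* were all called (adjusted p = 0.0339, 0.0387 and 0.0160, edgeR), with 5.49% of genes called as higher.

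In the small intestine, the question was whether the defensins of Paneth cells differ in mice whose skin was treated with IMQ. For 18 of the 19 *Defa* genes tested the fold change was below 0, at a median of -0.42 on the log2 scale, and none passed the test. The alpha-defensins took 1.57%, 1.53% and 1.35% of all counts in controls 7, 8 and 9 (95% Wilson intervals 1.569 to 1.576, 1.526 to 1.533 and 1.349 to 1.355) and 1.20% and 1.09% in IMQ 10 and 11 (1.202 to 1.207 and 1.091 to 1.097). Their summed normalized count was 764399 ± 49741 (SD, n = 3) in controls and 603572 ± 13607 (SD, n = 2) in IMQ-treated mice, which is 0.790 of the control level, and both IMQ libraries were below all 3 controls. A read counted for one *Defa* gene in place of another stays in this sum.

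*Defa24* was the most abundant member. Its normalized counts were 237015, 205838 and 199256 in controls and 165124 and 154030 in IMQ libraries. The IMQ libraries were below all controls, yet the log2 fold change was -0.42 (SE 0.27, adjusted p = 0.642, edgeR). This gene had no shared window. Per length it stood at 8846 ± 887 FPKM (SD, n = 3) in controls, above the next gene, *Defa17*, in every control library.

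*Defa30*, which differs from *Defa24* at the 4 bases given above, had normalized counts of 94512, 96323 and 89351 in controls and 71975 and 67393 in IMQ libraries, with a log2 fold change of -0.42 (SE 0.21, adjusted p = 0.502, edgeR). *Defa26*, a gene with 1.1% of windows shared, was at 4581, 5282 and 4535 in controls and at 3409 and 3250 in IMQ libraries. Both genes were lower in each IMQ library than in any control. *Defa26* had the lowest adjusted p of the family, at a log2 fold change of -0.53 (SE 0.13, adjusted p = 0.104, edgeR). DESeq2, which called 1.0% of the 19965 genes as lower, called *Defa26* (adjusted p = 0.0116) and *Defa30* (adjusted p = 0.0218) and no other member.

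The near-identical pairs were taken as sums. *Defa3* with *Defa17* had normalized counts of 223747, 179936 and 186382 in controls and 161815 and 168533 in IMQ libraries. *Defa23* with *Defa31* had 123150, 99413 and 107468 in controls and 93587 and 83536 in IMQ libraries. Both sums were lower in the IMQ libraries than in any control, and the log2 fold changes of the single genes were -0.32 for *Defa17*, -0.17 for *Defa3*, -0.36 for *Defa23* and -0.29 for *Defa31*. *Defa5* with *Defa34* had 19721, 34757 and 31244 in controls against 22597 and 18280, and *Defa36* with *Defa37* had 11431, 16351 and 15060 against 11278 and 9578. The first of these sums overlapped between the groups and the second did not, by a small gap to control 7. With each group entered as one gene, 16 members or groups were tested and edgeR called 0. *Defa35* shares the segment from the first cysteine codon to the stop codon with the last 4 genes, but only 23.4% of its windows. It was at 53892, 69238 and 63476 in controls and 46897 and 47791 in IMQ libraries.

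Taken singly, with their split uncertain, *Defa17* was at 133220, 92621 and 95250 normalized counts in controls and 82952 and 88369 in IMQ libraries, and *Defa3* at 90528, 87316 and 91133 against 78863 and 80164. *Defa31* was at 80878, 65324 and 69204 against 62105 and 55591, and *Defa23* at 42273, 34088 and 38264 against 31482 and 27945. For these 4 genes the IMQ libraries were below all controls. *Defa34* was at 12277, 22867 and 19694 against 13978 and 11380, and *Defa5* at 7444, 11889 and 11550 against 8619 and 6900. *Defa36* was at 7494, 10245 and 8874 against 6857 and 5920, and *Defa37* at 3936, 6105 and 6186 against 4421 and 3658. Of these 4, only *Defa36* did not overlap between the groups.

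*Defa29*, the gene with the cysteine repeat, had normalized counts of 44956, 25778 and 22683 in controls and 31401 and 38903 in IMQ libraries, and was the only *Defa* gene tested with a fold change above 0 (log2 fold change 0.17, SE 0.31, adjusted p = 0.900, edgeR). Its groups overlapped. *Defa28* had 3559, 1211 and 1262 in controls and 1029 and 558 in IMQ libraries, the largest log2 fold change of the family at -1.34 (SE 0.53, adjusted p = 0.350, edgeR). Control 7 was the highest library for both genes. Without control 7, the log2 fold changes were 0.54 for *Defa29* and -0.63 for *Defa28*.

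Control 7 also differed in the make-up of the family. It had the highest share of *Defa17* (16.2% of *Defa* counts, against 12.5% to 14.9% in the other 4 libraries) and of *Defa28* (0.433%, against 0.0939% to 0.173%). It had the lowest shares of *Defa34* (1.49%, against 1.92% to 3.09%), *Defa5* (0.906%, against 1.16% to 1.60%) and *Defa35* (6.56%, against 7.65% to 9.34%). *Defa24*, by contrast, kept a share of 25.9% to 28.9% in all 5 libraries. The 8 most abundant genes (*Defa24*, *Defa17*, *Defa30*, *Defa3*, *Defa31*, *Defa35*, *Defa23* and *Defa29*) made up 91.3% to 94.6% of *Defa* counts.

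Per length, the order in control small intestine ran from *Defa24* (8846 FPKM) through *Defa17* (4500 ± 896), *Defa30* (4153 ± 369) and *Defa3* (3785 ± 114), whose libraries overlapped from one to the next, to *Defa31* (2963 ± 288) and *Defa35* (2681 ± 442), which overlapped each other (SD, n = 3 each). Below them came *Defa23* (1579 ± 124), *Defa29* (1062 ± 400) and *Defa34* (847 ± 281 FPKM, SD, n = 3). Of the 23 pairs of neighbours among the 24 members with at least 1 FPKM, 17 overlapped and 6 did not. The last places were held by members at a few FPKM: *Defa-ps16* (3.37 ± 0.597), *Defa25* (3.17 ± 1.60) and *Defa33* (1.98, seen in 1 library).

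**Figure D4:**
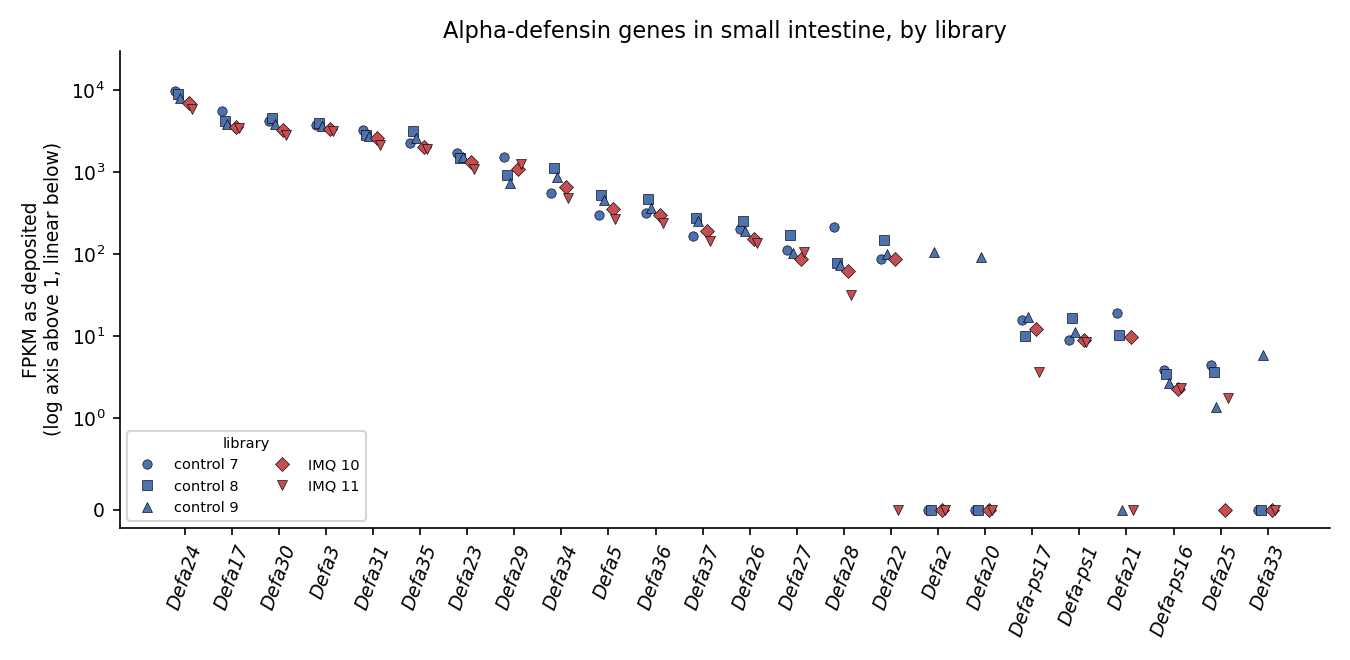
FPKM as deposited (vertical axis, log scale above 1 and linear below) of the 24 alpha-defensin genes that reach 1 FPKM in a small intestine library, ordered by the control mean, with one symbol per library, controls in blue and IMQ libraries in red. The levels run from 9633 FPKM for *Defa24* in control 7 down to single FPKM, and *Defa2*, *Defa20* and *Defa33* are at 0 in all libraries but control 9.

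The remaining *Defa* genes that were tested had lower levels. *Defa27* was at 1858, 2664 and 1749 normalized counts in controls and at 1399 and 1833 in IMQ libraries. Of the pseudogenes, *Defa-ps1* was at 149, 254 and 191 against 146 and 150, *Defa-ps16* at 46.6, 39.3 and 33.2 against 26.3 and 29.9, and *Defa-ps17* at 189, 113 and 208 against 142 and 46.6. *Defa-ps18* did not exceed 10 counts in any library. Of these 5, only *Defa-ps16* did not overlap between the groups.

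Several near-identical genes were read in some libraries and not in others. *Defa2*, *Defa20* and *Defa33* had 2927, 2587 and 166 counts in control 9 and 0 in the other 4 libraries, and *Defa32*, which shares 99.7% of its windows with them, had 0 in all 5. The sum of the 4 genes was thus 5680 counts in one control and 0 elsewhere. *Defa22* had 2002, 3406 and 2770 counts in controls and 2343 in IMQ 10, but 0 in IMQ 11, and *Defa21* had 434, 237 and 0 in controls and 260 and 0 in IMQ libraries. *Defa25*, which shares windows with *Defa28* and *Defa-ps18*, had 68, 55 and 26 counts against 0 and 28. These 6 genes had a 0 in at least one library and did not meet the filter. Without it, edgeR called 0 of the 25 *Defa* genes, with 6 at an unadjusted p under 0.05, among them *Defa2* and *Defa20*, whose counts came from control 9 alone.

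Over all 28 *Defa* genes, 25 had a count in small intestine and 19 were tested. The test called 2.95% of 19965 genes in this tissue, 0.17% as lower, and 0 of the 20 members tested. With edgeR, 3 of the 20 had an unadjusted p under 0.05 (*Defa26*, *Defa28* and *Defa36*), and limma-voom called 0. The share of all genes under this unadjusted limit is not given here, so the 3 cannot be set against it. The log2 fold change was below 0 for 18 of the 19 *Defa* genes, with a median of -0.42 against -0.02 over all genes tested. For 11 of the 19 both IMQ libraries were below all controls, and for 0 above, where 13.9% of all genes tested were below and 15.1% above. These genes share cells, libraries and partly reads, so they are not independent.

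**Figure D5:**
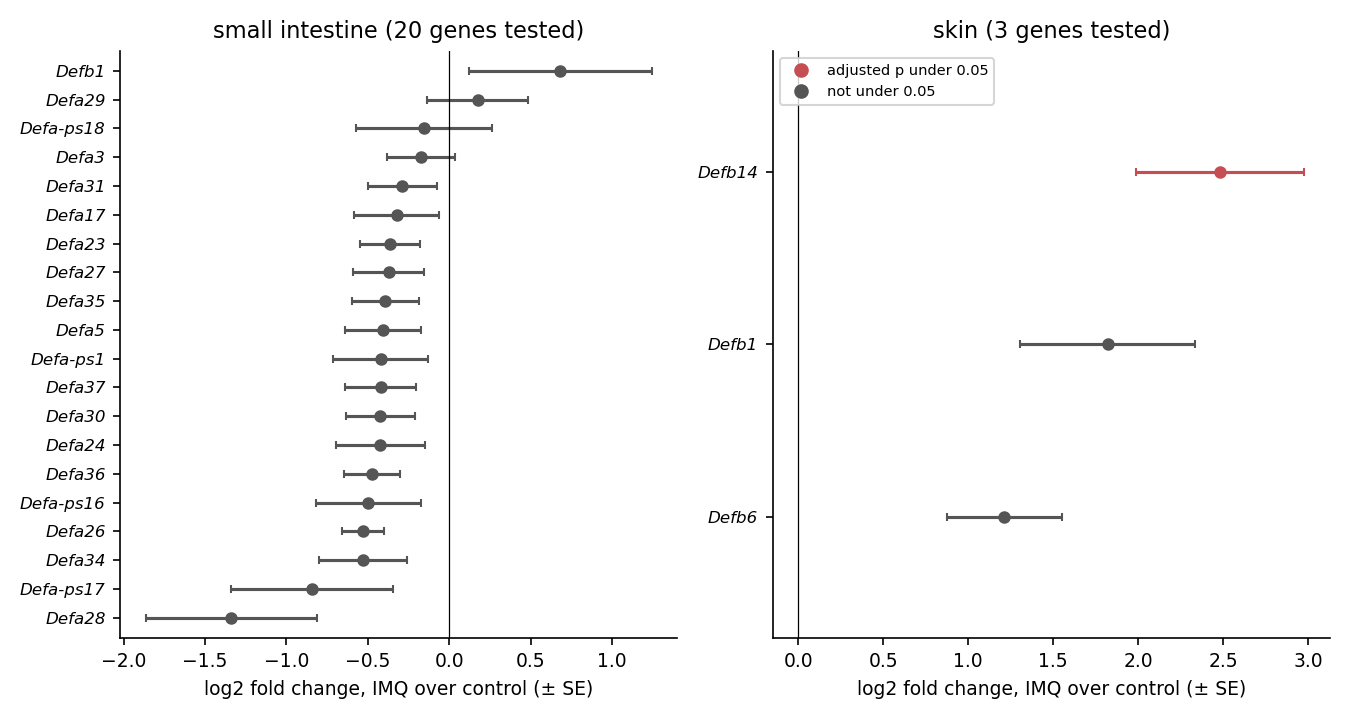
Log2 fold change of IMQ-treated over control mice (horizontal axis, ± SE from edgeR) for the 20 members tested in small intestine (left) and the 3 tested in skin (right), with those at an adjusted p under 0.05 in red. In small intestine 18 of 19 *Defa* genes lie below 0 and none is red, and in skin *Defb14* is red at 2.48.

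Beta-defensins were near absent in the small intestine. Only 4 *Defb* genes had a count there and only *Defb1* had one in every library, with 3, 9 and 8 counts in controls and 17 and 5 in IMQ libraries (log2 fold change 0.68, SE 0.56, adjusted p = 0.738, edgeR). *Defb1* was the only member with a count in all 11 libraries, and so the only one tested with this filter for a difference between the tissues in its response to IMQ, in one model that called 2.55% of 18108 genes. The model took the libraries of skin and small intestine as independent, although it is not known which came from one mouse. The interaction term was -1.11 (SE 1.07, adjusted p = 0.668, edgeR, small intestine minus skin), with an unadjusted p of 0.320, and DESeq2 and limma-voom did not call it either. Without the filter 35 members were tested for this difference and edgeR called 0, with 1 (*Defa29*) at an unadjusted p under 0.05. In skin *Defa29* had 0, 458 and 0 counts in controls 1 to 3 and 2, 3 and 0 in IMQ libraries 4 to 6. The term was above 0 for 15 of 26 *Defa* genes, and for 0 of 25 when skin control 2 and IMQ 5 were also left out. In the latter fit the only *Defa* counts of skin were in IMQ 4. For genes without a skin count the term then repeats the small intestine fold change, and for the others the counts of IMQ 4 push it down. The 0 of 25 is therefore not a measure of a difference between the tissues. For *Defb3*, *Defb6* and *Defb14* such a fit has almost no counts in small intestine to draw on.

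Paneth cell genes other than defensins were measured beside them. Of 17 listed genes, all were tested in small intestine and edgeR called 0, with 7 at an unadjusted p under 0.05 and a median log2 fold change of -0.33. The share of all genes under this unadjusted limit is not given here, so the 7 cannot be set against it. *Mmp7*, which encodes the enzyme that activates the alpha-defensins, had normalized counts of 8456, 9806 and 11080 in controls and 6669 and 7540 in IMQ libraries (log2 fold change -0.46, adjusted p = 0.273, edgeR). *Lyz1*, the lysozyme of Paneth cells, had 368434, 303753 and 321154 in controls and 245732 and 240654 in IMQ libraries (log2 fold change -0.45, adjusted p = 0.676, edgeR). *Pla2g2a*, an antibacterial phospholipase, had 115119, 106385 and 114169 against 91875 and 75949 (log2 fold change -0.42, adjusted p = 0.566, edgeR). In these 3 genes the IMQ libraries were below the controls without passing the test. Over the list 11 genes had a fold change below 0 and 6 above. Among the latter, named after their values were seen, *Mptx2* had 13340, 11001 and 15308 normalized counts in controls and 18860 and 24938 in IMQ libraries, and *Nod2* had 271, 222 and 299 against 443 and 524, both above all controls and not called (adjusted p = 0.147 and 0.101, edgeR). The 17 genes summed to 14153 to 15669 CPM in controls and 11806 and 17078 CPM in IMQ 10 and 11. The sum in IMQ 11 rested in part on *Reg3b*, at 6503 CPM there. *Reg3b* was at 1026, 2157 and 2854 CPM in controls and 1712 CPM in IMQ 10. *Reg3g* was at 578, 1220 and 1777 CPM in controls and 969 and 2279 CPM in IMQ 10 and 11.

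Markers of position along the small intestine were also summed. The 8 proximal genes summed to 3997 to 9176 CPM in controls, with control 7 highest, and to 14490 and 21161 CPM in IMQ 10 and 11. The 7 distal genes summed to 540 to 730 CPM in controls and to 499 and 251 CPM. Neither sum overlapped between the groups, but the first rested on *Apoa4*: without it, the remaining 7 proximal genes summed to 1461 to 2335 CPM in controls and to 2055 and 1733 CPM in IMQ libraries. This remainder was mostly *Lct*, at 2115, 1801 and 1284 CPM in controls and 1834 and 1470 CPM in IMQ libraries. The proximal *Onecut2* was at 58.0, 14.2 and 28.2 CPM in controls and 77.4 and 97.0 CPM in IMQ libraries. The distal *Cubn* was at 335, 465 and 244 CPM in controls and 326 and 26.6 CPM in IMQ 10 and 11. *Apoa4*, which is also in the epithelial list, had a log2 fold change of 1.83 (adjusted p = 0.222, edgeR), and edgeR called 0 of 7 proximal and 0 of 6 distal genes tested, with 3 and 1 at an unadjusted p under 0.05. Of the proximal genes tested 4 had a fold change above 0 and 3 below, and of the distal genes 1 and 5. The 25 epithelial genes summed to 45154 to 55240 CPM in controls and 62226 and 68268 CPM in IMQ libraries, with 0 of 25 called and 9 at an unadjusted p under 0.05. Of these 25 genes 8 had a fold change above 0 and 17 below (median -0.17), and without *Apoa4* the sums overlapped, at 42997 to 50454 CPM in controls and 49792 and 48840 CPM in IMQ libraries. The part of the segment sampled, or of the share of other epithelial RNA, in the alpha-defensin values was not tested. Of the list of cytokines and their receptors, 10 genes were tested in this tissue and 1 was called, *Il1b*, at a log2 fold change of 3.16 (adjusted p = 0.00519, edgeR), while *Il17a* was between 0 and 11 counts in each of the 5 libraries.

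The other lists gave the following in their second tissue. In small intestine, 0 of 10 other antimicrobial genes, 0 of 5 receptors and enzymes (with 5 and 3 at an unadjusted p under 0.05) and 2 of 5 neutrophil genes (*Csf3r* and *Mmp8*, both higher) were called. Of the keratinocyte, hair follicle and skeletal muscle genes 1, 2 and 4 were tested there and 0 called. In skin, 9 of the 17 Paneth cell genes were tested, of which *Nod2* was called higher and *Lyz1* and *Sox9* lower, and 0 of 9 epithelial genes were called, with 5 at an unadjusted p under 0.05. The list genes tested had a count in every skin library, so they do not mark Paneth cells alone in this tissue. *Lyz1* was highest in control 2, at 42.2, 97.8 and 48.4 CPM in controls 1 to 3 against 13.9, 15.9 and 22.7 CPM in IMQ libraries. Of 3 proximal genes tested in skin *Cybrd1* and *Slc40a1* were called lower, and of 3 distal genes *Tmem252* was called higher. The 11 genes of the male reproductive tract, where many *Defb* genes are expressed, summed to at most 0.495 CPM in skin and 0.146 CPM in small intestine, and 34 *Defb* genes had no count in any library.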

How the data were processed

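RNA of skin (3 control and 3 IMQ libraries) and small intestine (3 and 2) was sequenced as 100-base paired-end reads. The authors aligned trimmed reads to mm10 with HISAT2 2.1.0 and estimated abundance with StringTie 2.1.3b, and deposited 1 table with whole-number read counts per gene, not normalized. The deposited FPKM, scaled by the authors for length and library size, were used for levels between genes, and the deposited TPM were not used. The table also holds 0 columns of samples outside these 11. How the counts were made from reads that match several genes is not given in the sources used here. Totals were 44995414 to 58526384 counts per library.

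Within a tissue, genes detected in all of its libraries (1 count or more) were scaled by relative log expression and compared between IMQ and control with edgeR 4.0.16 (R 4.3.3), and a call needed an adjusted p under 0.05 (Benjamini-Hochberg, over all genes tested). The study used DESeq2, which was run as an alternative (DESeq2 1.42.0), as were limma-voom and limma on log2(FPKM + 0.01) and log2(FPKM + 1) (limma 3.58.1), TMM, filterByExpr, no filter, one fit of all 11 libraries and each library left out. Fits with near-identical genes summed, list sums without *Apoa4*, and fits without skin control 2 and IMQ 5 together were added after seeing the data. The fits were tested on simulated data. Standard errors of fold changes were derived from the F statistic. Numbers of genes at an unadjusted p under 0.05 are given without the share over all genes, so they do not tell whether a list exceeds it. Members with at least 10 counts in a library are named, and those at 1 FPKM or more on average in a group have every value given. The 12 marker and pathway lists are counted, with the largest called changes named, along with *Mmp7*, *Lyz1*, *Pla2g2a*, *Il17a*, *Il17f*, *Il22*, *Il1b* and *Ccr6*. A few other list genes (*Il17c*, *Apoa4*, *Mptx2*, *Nod2* and the remaining called keratinocyte, cytokine and receptor genes) were named after their values were seen. So were *Reg3b*, *Reg3g*, *Lct*, *Onecut2* and *Cubn*. The members, the lists and the rule were chosen with earlier results of these data known. Positions and coding sequences were taken from RefSeq (GRCm38.p6) and GENCODE M21, which placed all 71 members. A transcript was matched for 68 of them, which leaves *Defa-ps16*, *Defa-ps17* and *Defa-ps18* without windows of their own.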

Additional observations from a re-analysis of the deposited data

How the results depend on the processing

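No paired analysis was possible because the annotation does not say which tissues came from one mouse. In skin, where 1 member was called, DESeq2 called 3, and filterByExpr, no filter and one fit of all 11 libraries each called 2. *Defb3* passed filterByExpr only through the IMQ libraries. Leaving out each library in turn gave 0 to 3 called members. The number of all genes called higher changed too, from 830 to 1514 with DESeq2, 945 with one fit and 219 to 1139 with a library left out (219 without IMQ 5, 244 without control 1, 366 without IMQ 4 and 482 without control 3, the 4 cases in which 0 members were called). Leaving out skin control 2 and IMQ 5 together, chosen after seeing the data, gave 0, with an adjusted p of 0.0700 to 0.128 for the 3 members tested (edgeR). In small intestine, where 0 were called, DESeq2 called 2 and each other alternative 0. No alternative called a member in the interaction. 3 fold changes in small intestine turned sign when a library was left out: *Defa29* ranged from -0.011 (without control 9) to 0.54, *Defa-ps18* from -0.40 to 0.084 (without IMQ 10) and *Defb1* from -0.25 (without IMQ 10) to 1.20, and the cause was not tested. The other members tested in a tissue with counts in every library had the same direction there under every alternative run. In skin, the 5 *Defa* genes that could be fitted both without the filter and with control 2 and IMQ 5 also left out went from below 0 to above 0 (*Defa24* from -5.12 to 5.89), and none was called in either. With control 2 and IMQ 5 left out, IMQ 4 held all *Defa* counts of skin, so the second sign was fixed in advance. The summed alpha-defensin level in small intestine had a log2 ratio of -0.34, and of -0.37 to -0.29 with a library left out. The summed beta-defensin level in skin had 1.58, and 1.38 to 1.92.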
